A study of Mus musculus with 8 samples.

Results

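The transcripts of 10 genes that brake the cell cycle or respond to p53 were followed in mouse liver: Cdkn1a, Cdkn1b, Cdkn2a, Cdkn2c, Ccng1, Ccng2, Mdm2, Gadd45a, Gadd45b and Gadd45g. They were chosen by symbol, with earlier results of these data known. Every probe set that the platform annotation gives to 1 of these symbols alone was taken. All 10 genes were found, with 19 probe sets of the 45037 on the array, of which 16 probe sets of 9 genes were bright enough to be tested. Liver RNA was hybridised to 8 Affymetrix Mouse Genome 430 2.0 arrays, 2 for each of 4 groups: wild type (WT) mice of 3, 12 and 19 months and Sirt1-null (MT) mice of 3 months. The strains 129, FVB and Black Swiss were mixed in all mice, and livers were taken within a window of a few hours in the morning. The MT mice carried the Sirt1 deletion in every cell, and most mice of this genotype die before birth, so the MT animals were survivors. The paper speaks of 3 mice for each group in its results and of 2 samples for each condition in its methods. The sources used here do not say whether an array held the RNA of 1 mouse or of several. Each p-value therefore measures only the spread between these arrays, which may be partly technical.

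A cell enters the cycle when cyclin-dependent kinases (CDKs) become active, and CDK inhibitors hold these kinases back. p53 is a transcription factor that is stabilised by DNA damage and other stress. It raises Cdkn1a, which encodes the inhibitor p21, and also Mdm2, which encodes the ubiquitin ligase that destroys p53 and so closes a feedback loop. Most hepatocytes in an adult liver are not dividing, and p21 is known for limiting their re-entry into the cycle after injury or partial hepatectomy. SIRT1 is a deacetylase whose known substrates include p53 and the FoxO transcription factors, and both are known regulators of several of the genes described here.

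The main finding in these 10 genes was a lower signal in MT mice for Cdkn1a and Ccng2. Against WT mice of the same age, 1 of the 2 probe sets of each gene passed the test. The means of Cdkn1a were 4.04-fold and 10.6-fold lower, the latter with 1 MT array under its median, and those of Ccng2 4.93-fold and 2.87-fold lower. Gadd45g was 4.48-fold lower on average but did not pass. Cdkn1b, Cdkn2c, Ccng1, Mdm2, Gadd45a and Gadd45b had no probe set that passed in any comparison. None of the 9 tested genes passed between ages, and Cdkn2a was too dim to be tested. The paper reports from western blots that p53, p21 and p16 protein rose with age in WT liver. It also reports much more of these proteins in MT than in WT mice of 3 months. The arrays read RNA only, so protein levels cannot be read from these signals.

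Promoter sequences are shown for the genes that were lowest in MT mice and for those with a p53 motif near their start. They are RefSeq windows of 300 bases on build GRCm38.p6, from 250 bases before to 50 bases after an annotated start, of which the 10 genes had 13. The p53 motif is the 10-base unit that p53 binds in tandem copies. It matched in 4 of the 13 windows, those of an upstream start of Cdkn1a, of Ccng1, of Mdm2 and of Gadd45a, and in 8.36% of all 32851 windows. The E-box CACGTG, bound by the clock factors CLOCK and BMAL1 among others, matched in 3 windows, those of Gadd45g, Gadd45b and a second start of Cdkn2c, and in 7.15% of all. The FoxO motif, searched as TGTTTAC and TGTTTGC, matched in 1 window, that of Mdm2, and in 8.48% of all. The half-site AGGTCA of nuclear receptors such as ROR and REV-ERB matched in 2 windows, those of the second starts of Cdkn2a and Cdkn2c, and in 16.3% of all. All motifs were searched on both strands. A match describes the letters only.

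The windows of Cdkn1a, Ccng2 and Gadd45g are given whole because these 3 genes had the lowest MT signals relative to WT. Capitals mark matches to the p53 motif in Cdkn1a and to the E-box in Gadd45g, and the Ccng2 window held neither. The Cdkn1a window, at chr17:29090729-29091028 on the plus strand, belongs to the upstream of 2 annotated starts. The Ccng2 window lies at chr5:93267323-93267622 and the Gadd45g window at chr13:51846425-51846724, both on the plus strand.
Cdkn1a, upstream start: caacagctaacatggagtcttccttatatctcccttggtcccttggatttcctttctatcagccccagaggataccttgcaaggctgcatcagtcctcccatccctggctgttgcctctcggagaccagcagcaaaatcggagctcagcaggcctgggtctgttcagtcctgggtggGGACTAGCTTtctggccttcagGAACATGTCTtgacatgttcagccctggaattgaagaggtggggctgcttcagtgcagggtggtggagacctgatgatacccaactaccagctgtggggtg
Ccng2: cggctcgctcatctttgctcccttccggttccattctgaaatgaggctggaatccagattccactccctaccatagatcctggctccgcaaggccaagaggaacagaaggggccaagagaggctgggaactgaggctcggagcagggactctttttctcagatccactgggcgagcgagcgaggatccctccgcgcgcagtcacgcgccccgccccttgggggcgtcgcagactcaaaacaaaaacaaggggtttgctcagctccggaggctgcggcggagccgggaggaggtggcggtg
Gadd45g: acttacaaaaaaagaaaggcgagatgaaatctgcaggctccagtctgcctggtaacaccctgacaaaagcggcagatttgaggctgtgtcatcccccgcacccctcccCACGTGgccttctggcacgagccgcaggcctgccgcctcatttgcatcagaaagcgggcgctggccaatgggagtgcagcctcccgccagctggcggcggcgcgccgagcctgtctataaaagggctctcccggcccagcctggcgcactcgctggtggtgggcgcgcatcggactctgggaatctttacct

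The Cdkn1a window held 2 matches to the p53 motif. The 10 bases that follow the match nearer to the start differ from the motif at 1 position, so both units stand side by side. This pair begins 2841 bases before the other annotated start of Cdkn1a. The window of that other start, at chr17:29093519-29093818, held no p53 motif and 2 copies of the Sp1 motif GGGCGG, which 35.7% of all windows hold.

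For Ccng1, Mdm2 and Gadd45a, the 50 bases around the match are shown on the gene's strand, which is the minus strand for all 3, with the p53 motif in capitals. They come from chr11:40755442-40755491, chr10:117710915-117710964 and chr6:67037418-67037467.
Ccng1: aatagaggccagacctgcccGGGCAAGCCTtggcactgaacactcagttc
Mdm2: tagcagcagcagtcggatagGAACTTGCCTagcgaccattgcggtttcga
Gadd45a: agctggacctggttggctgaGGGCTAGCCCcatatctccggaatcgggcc
The match began 185 bases before the start in Ccng1, 186 before it in Mdm2 and 40 before it in Gadd45a. The bases beside these matches were not compared with the motif, so a second unit with a mismatch is not excluded.

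The values are MAS5 signals, intensities on a linear scale that the authors had scaled to a trimmed mean of 500.0 on each array. The median signal of an array lay between 74.7 and 83.1. Signals of different probe sets are not compared with each other, since each probe set has its own affinity. Changes are differences of mean log2 signal ± SE from a limma fit over 22519 probe sets, where -1 is a halving, and a probe set was called at a Benjamini-Hochberg adjusted p under 0.05.

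Sirt1 itself did not serve as a check of the labels. Its tested probe set gave 589 and 539 at 3 months in WT mice and 615 and 713 in MT mice, and the sources used here do not say whether it lies outside the deleted exons. The 7 measured hepatocyte markers summed to between 308472 and 411258 on all arrays. The methods describe the mutant mice as males, whereas the 3 Xist probe sets lay at or above the 95.2nd percentile on all 8 arrays and the 9 probe sets of 3 Y-linked genes at or below the 43.1st. By these genes all 8 arrays, WT and MT alike, read as female. The probe sets of the spike-in controls BioB, BioC and BioDn all read lowest on array 1 of the MT group. With the exception of BioB-3, they all read highest on array 2 of the MT group. The part of these readings in the MT comparisons was not tested. Both probe sets of BioC read 2493 and 3100 on array 1 of the MT group, against 4608 to 6639 on the other arrays. BioB-M read 1922 there and 3658 on array 2 of the MT group, against 2714 to 3566 on the WT arrays.

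**Figure D1:**
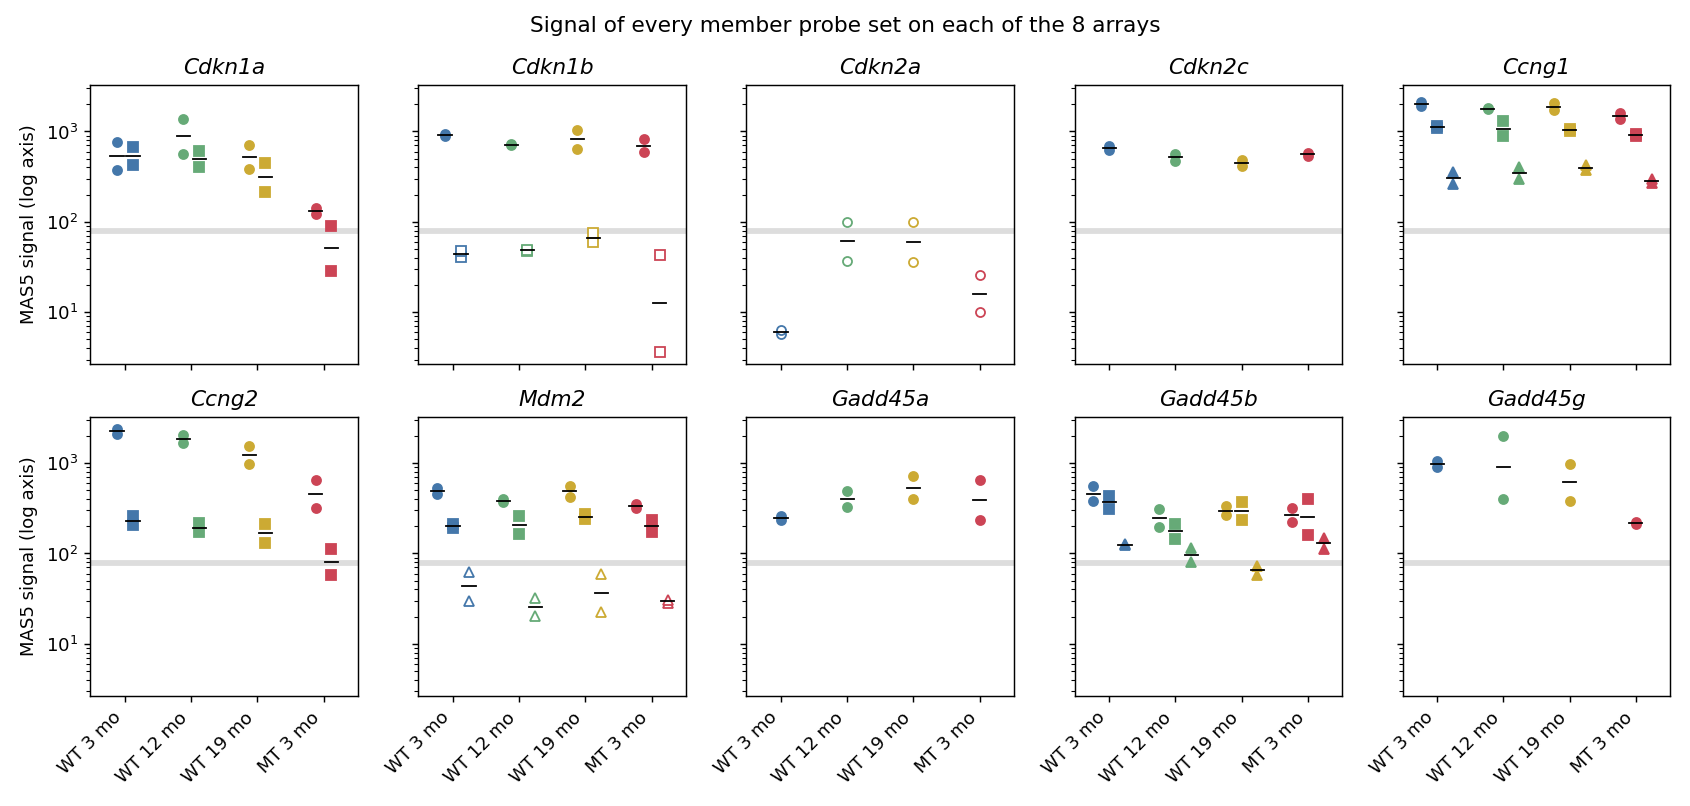
MAS5 signal (log axis) of each probe set of the 10 genes on each of the 8 arrays, by group. Circles, squares and triangles are the probe sets of a gene in order of mean signal, open symbols were not tested, black bars are geometric means of 2 arrays and the grey band is the range of array medians (74.7 to 83.1). The MT arrays lie below all WT arrays for both probe sets of Cdkn1a and of Ccng2 and for Gadd45g.

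Cdkn1a was lower on both MT arrays than on all 6 WT arrays by both of its probe sets. By the brighter one (1424638_at), the 3-month WT arrays read 770 and 371, the 12-month arrays 570 and 1371, the 19-month arrays 388 and 704, and the MT arrays 123 and 142. WT arrays of 1 group differed by up to 2.40-fold, while the MT arrays were close to each other. The difference from 3-month WT mice was -2.01 ± 0.46 (adjusted p = 0.0957), which did not pass. By the other probe set (1421679_a_at), the signals were 675 and 430, 405 and 613, 216 and 445, and 90.8 and 28.4 in the same order. Its MT arrays were apart by 3.20-fold, and the lower one was under the median of its array. This difference passed the test (-3.41 ± 0.53, adjusted p = 0.0335). The call was lost without array 1 or 2 of the 3-month WT group (adjusted p = 0.227 and 0.139) and without array 2 of the MT group (0.0788). The difference of this probe set was -4.25 without array 1 of the MT group and -2.57 without array 2.

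Ccng2, which encodes cyclin G2, an unusual cyclin that rises in cells leaving the cycle and is a known FoxO target, was also lower in MT mice. The brighter probe set (1416488_at) gave 2118 and 2368 at 3 months in WT mice, 2023 and 1647 at 12 months, 985 and 1546 at 19 months, and 316 and 653 in MT mice. No WT array came down to the level of the MT arrays, although both 19-month arrays were below all other WT arrays. The difference between MT and WT mice of 3 months was -2.30 ± 0.32 (adjusted p = 0.0205). It was called lower, and the call was lost without array 1 or 2 of the 3-month WT group (adjusted p = 0.133 and 0.150). The dimmer probe set (1448364_at) gave 260 and 204, 174 and 215, 131 and 213, and 113 and 57.2 in the same order. Its MT arrays too were below every WT array, the second of them under its array's median. The difference of -1.52 ± 0.38 did not pass (adjusted p = 0.117).

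Ccng1, which encodes cyclin G1, a p53 target that recruits a phosphatase to MDM2, showed smaller differences. Its brightest probe set (1420827_a_at) gave 1916 and 2100 at 3 months, 1813 and 1769 at 12 months, 2086 and 1709 at 19 months, and 1362 and 1605 in MT mice. Both MT arrays were below the 6 WT arrays, but the difference of -0.44 ± 0.16 from 3-month WT mice did not pass (adjusted p = 0.267). The second (1450016_at) gave 1095 and 1161, 890 and 1297, 1067 and 1007, and 894 and 934, and the third (1450017_at) 354 and 259, 296 and 403, 377 and 421, and 298 and 270. MT and WT arrays overlapped in both.

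Mdm2 gave 460 and 523 at 3 months in WT mice, 401 and 370 at 12 months, 560 and 423 at 19 months, and 355 and 319 in MT mice by its brightest probe set (1423605_a_at). The MT arrays were the lowest 2 of the 8, and the difference of -0.54 ± 0.20 did not pass (adjusted p = 0.274). A second probe set (1427718_a_at) gave 214 and 192, 165 and 261, 239 and 273, and 234 and 171, where the MT arrays overlapped those of 3 and 12 months and lay below those of 19 months. The third (1457929_at) was under the array median on all 8 arrays, at 20.6 to 62.5, and was not tested. The probe sets of Mdm2 thus did not show the same pattern.

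The Gadd45 genes encode small stress-induced proteins that bind the p38 and JNK kinase pathway, PCNA and the CDK1 complex. Gadd45g had the widest spread between arrays of 1 group among the 16 tested probe sets. Its probe set (1453851_a_at) gave 896 and 1042 at 3 months in WT mice, 403 and 2010 at 12 months, 382 and 984 at 19 months, and 210 and 222 in MT mice. The 12-month arrays differed 4.98-fold and the 19-month arrays 2.57-fold, against 1.06-fold between the MT arrays, and no WT array was as low as either MT array. The difference of -2.16 ± 0.64 did not pass (adjusted p = 0.181). It passed when the 2 groups were fitted alone (adjusted p = 0.0106) and when array 1 or 2 of the 12-month group was left out (0.0391 and 0.0408).

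Gadd45a, a direct p53 target, had a higher mean in MT than in 3-month WT mice, carried by 1 array. Its probe set (1449519_at) gave 257 and 236 at 3 months in WT mice, 324 and 493 at 12 months, 712 and 403 at 19 months, and 649 and 237 in MT mice. The MT arrays spanned almost the whole range, and the difference of 0.67 ± 0.44 from 3-month WT mice (adjusted p = 0.563) became -0.0571 without array 1 of the MT group. All 4 arrays of the older WT mice were above both 3-month WT arrays. That comparison did not pass either, at 0.70 ± 0.44 for 12 months (adjusted p = 0.715) and 1.12 ± 0.44 for 19 months (0.357).

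Gadd45b, which is induced in liver by inflammatory and xenobiotic signals and after partial hepatectomy, was read by 3 tested probe sets. The brightest (1450971_at) gave 381 and 552 at 3 months in WT mice, 196 and 308 at 12 months, 264 and 335 at 19 months, and 225 and 316 in MT mice. The 3-month WT arrays were the highest 2, and none of the differences from them passed: -0.90 ± 0.30 at 12 months (adjusted p = 0.455), -0.63 ± 0.30 at 19 months (0.435) and -0.78 ± 0.30 in MT mice (0.291). The second (1449773_s_at) gave 312 and 434, 144 and 213, 234 and 375, and 160 and 396, with a difference of -1.07 ± 0.42 at 12 months (adjusted p = 0.528). The third (1420197_at) gave 124 and 126, 81.1 and 115, 58.2 and 73.5, and 112 and 150, with the lowest mean at 19 months, where both arrays were under their median and the difference did not pass (adjusted p = 0.328). The MT arrays lay within the range of the older WT arrays by the first probe set of Gadd45b and above both 19-month arrays by the third.

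Of the other CDK inhibitors, Cdkn1b and Cdkn2c were tested and passed in no comparison. Cdkn1b encodes p27, which holds cyclin E and CDK2 in check in resting cells. In WT mice its bright probe set (1434045_at) read 902 and 939 at 3 months, 721 and 703 at 12 months, and 644 and 1032 at 19 months, and the MT arrays read 594 and 820. MT and older WT arrays overlapped, and the difference from 3-month WT mice was -0.40 ± 0.24 (adjusted p = 0.517). A second probe set (1419497_at) was under the array median on all arrays, at 3.68 to 74.5, and was not tested.

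Cdkn2c encodes p18, an inhibitor of CDK4 and CDK6. Its probe set (1416868_at) gave 693 and 627 at 3 months, 564 and 473 at 12 months, 482 and 417 at 19 months, and 585 and 535 in MT mice. The mean was lowest in the oldest WT mice, and the arrays of a group were close to each other. The difference at 19 months (-0.56 ± 0.18, adjusted p = 0.283) and that in MT mice (-0.24 ± 0.18, 0.617) did not pass.

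Cdkn2a, whose products p16 and p19Arf accumulate in many ageing mouse tissues, was too dim to be tested. Its only probe set (1450140_a_at) read 5.68 and 6.41 at 3 months in WT mice, 36.8 and 100 at 12 months, 36.1 and 98.7 at 19 months, and 25.9 and 10.02 in MT mice. It was above the median of its array only on array 2 of the 12-month group and array 2 of the 19-month group, at the 54.1st and 53.4th percentile. No fold is given, since both arrays of the 3-month WT and MT groups lay under the array median.

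Of the 16 tested probe sets, 2 were called lower in MT than in 3-month WT mice, against 0.266% of all tested probe sets, and 0 were called higher, against 0.249%. At an unadjusted p under 0.05, 8 were lower, against 6.18% of all. Both MT arrays were below both 3-month WT arrays for 11 of the 16, against 21.7% of all, and above them for 0, against 24%. The median difference was -0.49 over the 16 probe sets and 0.02 over all. Probe sets of 1 gene read the same transcripts, so these counts are not counts of independent genes. The members were chosen with earlier results of these data known, so the counts are not an independent test either. Both calls were also lost without a variance trend in the fit (adjusted p = 0.133 for Cdkn1a and 0.123 for Ccng2), and that of Cdkn1a with a robust variance prior (0.0729) or with the 2 groups fitted alone (0.0521).

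Against the mean of the 3 WT ages, which shares the 3-month WT arrays with the comparison above, 3 of the 16 were called lower, compared with 0.511% of all, and 0 higher, compared with 0.284%. Both probe sets of Cdkn1a passed, with -2.24 ± 0.38 (1424638_at, adjusted p = 0.0339) and -3.10 ± 0.44 (1421679_a_at, 0.0201). The third was the brighter probe set of Ccng2, with -1.92 ± 0.26 (adjusted p = 0.0186). The dimmer one of Ccng2 (-1.28 ± 0.31, adjusted p = 0.101) and Gadd45g (-1.91 ± 0.52, 0.135) did not pass. Both MT arrays lay below all 6 WT arrays for 7 of the 16 probe sets, against 6.61% of all, and above them for 0, against 7.36%. At an unadjusted p under 0.05, 7 were lower, against 7.29% of all. The 7 below all WT arrays were the 2 of Cdkn1a, the 2 of Ccng2, the brightest of Ccng1 and of Mdm2, and that of Gadd45g.

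All 3 calls against the mean of the WT ages depended on single arrays. Without array 1 of the 3-month WT group none of them passed (adjusted p = 0.0832 and 0.0615 for Cdkn1a and 0.0546 for Ccng2). Ccng2 was also lost without array 2 of that group (0.0556) or array 1 of the MT group (0.0584). The brighter probe set of Cdkn1a was lost without array 2 of the 19-month group (0.0765) or either MT array (0.145 and 0.141), and the dimmer one without array 2 of the MT group (0.0829). The difference of the dimmer one was -3.94 without array 1 of the MT group and -2.26 without array 2. Without a variance trend the adjusted p was 0.109 to 0.135 for all 3, and with a robust prior both probe sets of Cdkn1a were lost (0.0875 and 0.0557).

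**Figure D2:**
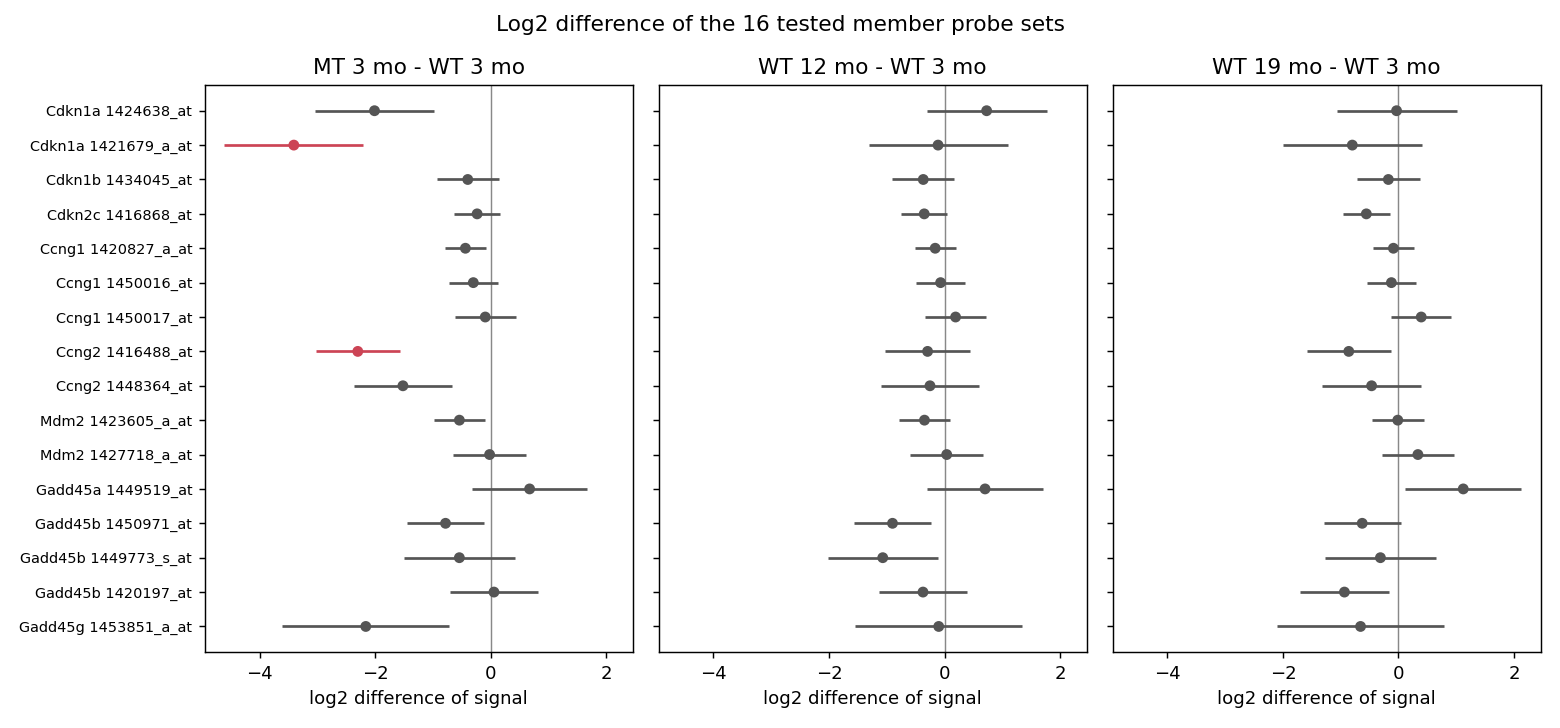
Difference of mean log2 signal for the 16 tested probe sets in MT mice, 12-month WT mice and 19-month WT mice, each against 3-month WT mice. Points are estimates of the limma fit, lines are 95% confidence intervals and red marks adjusted p under 0.05. Only Cdkn1a (1421679_a_at) and Ccng2 (1416488_at) are red, both in MT mice, and the widest intervals are those of Gadd45g.

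With age, 0 of the 16 probe sets were called at 12 months, where 0.0133% of all were, and 0 at 19 months, where 0.0355% were. Between 19 and 12 months 0 of all 22519 were called with limma, and 2419 (10.7%) had an unadjusted p under 0.05, of which 0 were members. The t-test of the methods, run with a fold over 1.5 but without detection calls, found 524 before and 0 after adjustment. At an unadjusted p under 0.05, 2 of the 16 differed at 12 months (8.57% of all) and 4 at 19 months (12.5% of all). These were the first 2 probe sets of Gadd45b at 12 months, and Cdkn2c, Ccng2 (1416488_at), Gadd45a and Gadd45b (1420197_at) at 19 months. Both 12-month arrays were below both 3-month arrays for 8 of the 16 (20.8% of all) and above them for 1 (19.3%), and at 19 months for 5 (21.8%) and 3 (26.4%). The difference of Ccng2 at 19 months was -0.86 ± 0.32 (adjusted p = 0.341), and that of Cdkn1a (1424638_at) at 12 months was 0.73 ± 0.46 (0.715). The median difference over the 16 was -0.21 at 12 months and -0.24 at 19 months, against 0.00 and 0.02 over all. All comparisons with 3-month WT mice share the same 2 control arrays, so a high or low value on those arrays enters each of them.

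The 3′ to 5′ log2 difference of the pyruvate carboxylase control, a measure of RNA quality and labelling, was 3.88 to 4.25 in 3-month WT mice and 3.88 to 3.93 in MT mice. It was 4.54 to 5.10 at 12 months and 4.77 to 5.86 at 19 months. That of beta-actin was 1.09 to 1.22 at 3 months, 1.26 to 1.31 at 12 months and 1.23 to 1.25 at 19 months in WT mice, and the MT arrays held the lowest and the highest value of all 8 (0.97 and 1.48). That of Gapdh was -0.59 to -0.51, -0.46 to -0.34 and -0.44 to -0.39 in the same order, and -0.62 and -0.38 in MT mice. The part of these measures in the comparisons was not tested. The 8 Kupffer cell markers summed to 21498 and 21635 at 3 months and to 24381 and 39272.5 at 19 months, and the B and plasma cell markers to 1109 and 1418 and to 7641 and 8457.5. Their part in the age comparisons was not tested either. In whole liver, fewer cells of a type and less RNA per cell cannot be told apart.

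Marker sums of other cell types differed in both directions between MT and 3-month WT mice. The 5 measured T and NK cell markers summed to 376 and 404, against 650 and 712 in 3-month WT mice. The 8 Kupffer cell markers summed to 16251 and 18792, also below the WT arrays. The 4 measured exocrine pancreas markers summed to 2025 and 2141, against 4339 and 4889.5, with Cpa1 under the array median on all arrays. Sums were above those of WT mice for the 5 neutrophil markers (1063 and 1369 against 751 and 790, with Ltf and Camp under the array median on all arrays) and for the 7 hepatocyte markers (393166 and 411258 against 367252 and 384191). They were also above for the 4 measured bile duct markers (288 and 436 against 205 and 219) and the 2 measured erythroid markers (260 and 284 against 164.5 and 164.6). Only 1 gene of each of these last lists was bright enough to be tested. The sum of the stellate cell markers was lower (4418 and 4872 against 5132.5 and 5427), although 3 of the 4 tested had a difference above 0 and 1 below. The sums of sinusoidal endothelium and of B and plasma cells overlapped. The part of these cells in the differences of Cdkn1a and Ccng2 was not tested.

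The spread between arrays of a group varied widely among the members. On the log2 scale the pooled SD of Gadd45g was 0.95, at the 98.8th percentile of all tested probe sets, where the median was 0.23. Cdkn1a lay at the 96.1st and 97.5th, Gadd45a at the 95.4th and the probe sets of Gadd45b at the 77.7th, 94.0th and 57.8th percentile in order of brightness. Ccng1, Cdkn2c and the brightest probe set of Mdm2 had SDs of 0.13 to 0.24. The span of the 4 group means was above the 99th percentile for both probe sets of Cdkn1a, for the brighter one of Ccng2 and for Gadd45g. MT mice had the lowest mean for 11 of the 16 probe sets.

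**Figure D3:**
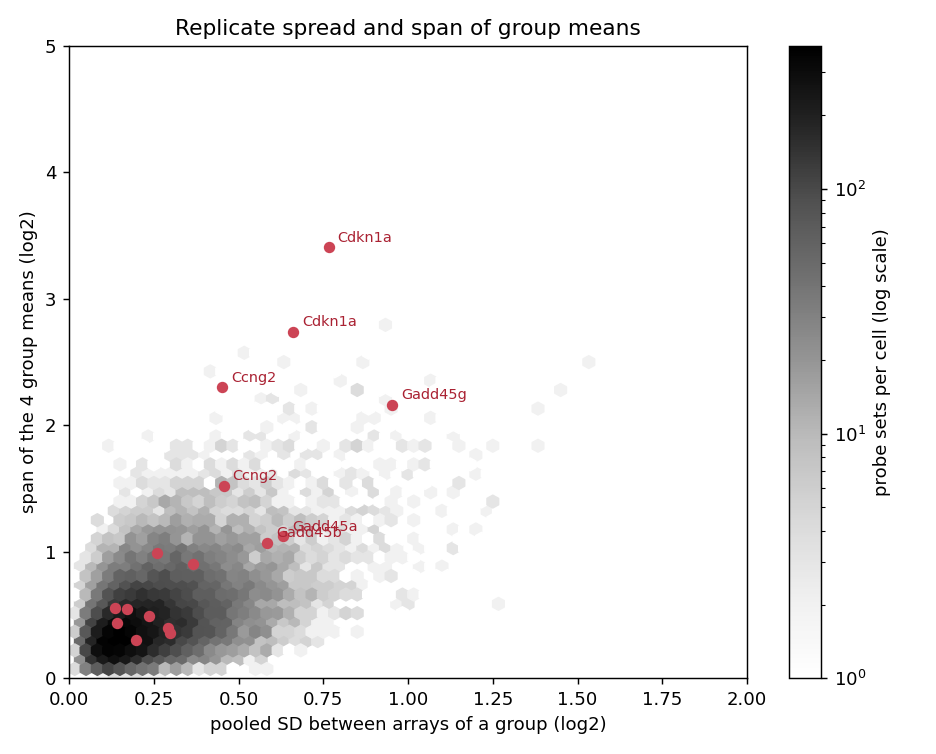
Pooled SD between the 2 arrays of a group (log2, horizontal) and span of the 4 group means (log2, vertical). Grey cells count all 22519 tested probe sets on a log scale, with 8 beyond the axes, and red points are the 16 member probe sets. Cdkn1a, Ccng2 and Gadd45g combine a wide span with a spread above the median of 0.23. Gadd45a and the second probe set of Gadd45b also do so, with smaller spans of 1.12 and 1.07. The remaining members lie nearer to the bulk.

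The genes most alike in pattern were found by Pearson's r of log2 signal over the 8 arrays, for each member gene whose brightest tested probe set had group means that spanned over 1 log2 unit. The values describe these arrays only, since all of the 22519 tested probe sets that were named by 1 symbol were searched, except those of the member itself. For Cdkn1a they were Glo1 (r = 0.977), Tbl1xr1 (0.967) and Ubxn1 (0.953). For Ccng2 they were Mbl1 (r = 0.985), Rap2c (0.975) and Zfp64 (0.971). For Gadd45g they were Kmt5b (r = 0.984), Armc6 (0.970) and Abcg2 (0.969). For Gadd45a they were Fbxw11 (r = 0.964), B3gnt2 (0.947) and Llgl1 (0.947). Glo1, which detoxifies methylglyoxal, was 4071 and 3630 in 3-month WT mice and 2374 and 2540 in MT mice, and Mbl1, a mannose-binding lectin of the liver, was 10944 and 10438 against 6711 and 8281.

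Other genes of the same pathways were taken from lists, and the probe set with the highest mean stood for each gene. Over all 10976 genes, 0.31% were called higher and 0.392% lower in MT than in 3-month WT mice, and the median difference was 0.00. Among the 9 member genes 1 was called lower, with a median of -0.54.

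Of 33 other p53 target genes tested, 1 was called lower and 0 higher, and the median difference was -0.17. The one called was Fas, which encodes a death receptor. It gave 1466 and 1390 at 3 months in WT mice, 1171 and 875 at 12 months, 1227 and 1602 at 19 months, and 558 and 656 in MT mice. Its MT arrays were below all WT arrays, with a difference of -1.24 ± 0.20 (adjusted p = 0.0355). The call was lost without any 1 of the 4 arrays compared, with adjusted p of 0.237 and 0.193 without array 1 or 2 of the WT group and 0.114 and 0.0739 without array 1 or 2 of the MT group. Among 14 tested genes of the list for p53 and its regulators 0 were called, and 7 lay above and 7 below 0. Trp53, which encodes p53 itself, was not among these 14. The largest statistics were those of Usp7, a deubiquitinase of p53 and MDM2 (0.61 ± 0.18, adjusted p = 0.175), Atr, a kinase that activates p53 (0.47 ± 0.20, 0.350), and Hipk2, a kinase that phosphorylates p53 (0.21 ± 0.12, 0.492).

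Of 23 FoxO factors and other FoxO targets, 0 were called, with 10 above and 13 below 0 and a median of -0.11. Gabarapl1, an autophagy gene, had a difference of -0.67 ± 0.15 (adjusted p = 0.0881), Pdk4, a kinase that shuts down glucose oxidation, of -1.15 ± 0.27 (0.102), and Sesn3, a stress-induced inhibitor of mTORC1, of -0.63 ± 0.18 (0.161). At 19 months 18 of the 23 were below 0 with a median of -0.34, again with 0 called.

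Of 17 genes of DNA replication and mitosis, 16 were above 0 in MT mice with a median of 0.44, and 1 was called. It was Mcm4, a subunit of the replicative helicase, with 243 and 169 at 3 months, 319 and 248 at 12 months, 376 and 292 at 19 months, and 622 and 649 in MT mice (1.65 ± 0.24, adjusted p = 0.0252). Its MT arrays were above all WT arrays. The call was lost without array 1 or 2 of the 3-month WT group (adjusted p = 0.112 and 0.175) and without array 1 or 2 of the MT group (0.0868 and 0.0989). Of 14 G1 cyclins, CDKs and their partners, 11 were above 0 with a median of 0.27 and 0 called. Cks1b, a CDK subunit needed for the destruction of p27, gave 1191 and 1337.5 at 3 months and 2104 and 3128 in MT mice (1.02 ± 0.20, adjusted p = 0.0633). Ccne2, which encodes cyclin E2, gave 53.9 and 80.2 at 3 months in WT mice and 157 and 226 in MT mice (adjusted p = 0.126). Both of its 3-month WT arrays were under their median, so that no fold is given. Cdc25a, the phosphatase that activates CDK2, differed by 0.94 ± 0.31 (adjusted p = 0.233). Cks1b passed against the mean of the WT ages (0.95 ± 0.16, adjusted p = 0.0377). That call was lost without array 1 or 2 of the 3-month WT group (0.108 and 0.0907), array 1 or 2 of the 19-month group (0.0790 and 0.0875) or array 2 of the MT group (0.178), with median centring (0.0560), without a variance trend (0.141) and with the mean over the probe sets of Cks1b (0.0706).

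Of 14 pocket proteins and E2F factors 0 were called, with a median of 0.16. E2f3, an activator of S phase genes, differed by 0.95 ± 0.23 (adjusted p = 0.114), and Tfdp1, the partner of E2F factors, by 0.62 ± 0.19 (0.192). E2f8, a repressor of the E2F programme, gave 361 and 373 at 3 months, 153 and 896 at 12 months, 235 and 246 at 19 months, and 73.5 and 65.7 in MT mice, where both arrays were under their median, so that no fold is given (adjusted p = 0.131). Of 5 genes tested from a list of other CDK inhibitors and CDK-related proteins, 0 were called and the median was -0.03. The largest statistics were those of Cdk2ap2 (0.40 ± 0.17, adjusted p = 0.351), Cdk2ap1 (0.37 ± 0.16, 0.361) and Cdk5rap1 (-0.36 ± 0.23, 0.539). The inhibitor genes Cdkn2d (-0.36 ± 0.33, 0.701) and Cdkn1c (-0.03 ± 0.25, 0.972) had smaller ones. Of 15 genes of the stress kinase and TGF-beta pathways next to Gadd45, 0 were called, and Smad7, an inhibitor of TGF-beta signalling, had the largest statistic (-1.23 ± 0.44, adjusted p = 0.264), before the receptors Tgfbr1 (0.33 ± 0.16, 0.423) and Tgfbr2 (0.33 ± 0.17, 0.428).

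Immediate early genes respond within minutes to handling and to growth signals. Of 15 tested, 0 were called in MT mice, and their median difference was -0.43 in MT mice, -0.57 at 12 months and 0.02 at 19 months. Of 16 clock genes, 2 were called higher in MT than in 3-month WT mice and 0 lower, with a median of 0.63. The largest moderated statistics of the immediate early list in MT mice were those of Dusp1 (-1.07 ± 0.42, adjusted p = 0.299), Jund (0.42 ± 0.20, 0.400) and Myc (adjusted p = 0.445). Myc gave 64.3 and 107 at 3 months in WT mice and 49.8 and 41.3 in MT mice. Both of its MT arrays were under their median, so that no fold is given. The 2 clock genes were Per2, a clock repressor (3.64 ± 0.21, adjusted p = 0.000463), and Wee1, the kinase that holds back CDK1 at the entry to mitosis (2.57 ± 0.37, 0.0244). Per2 gave 83.2 and 75.2 at 3 months, 227 and 305 at 12 months, 321 and 308 at 19 months, and 1004 and 967 in MT mice, and was also called at 19 months (1.99 ± 0.21, adjusted p = 0.0296), the only gene of these 10 lists called between ages. This call was lost without array 1 or 2 of the 3-month WT group (0.140 and 0.130) or of the 19-month group (0.08675 and 0.1165), without a variance trend (0.159) and with the mean over the probe sets of Per2 (0.261). Wee1 gave 163 and 129 at 3 months, 120 and 306 at 12 months, 236 and 281 at 19 months, and 867 and 856 in MT mice, where both arrays were above all WT arrays. The call of Wee1 was lost without array 1 or 2 of the 3-month WT group (adjusted p = 0.125 and 0.167) and without either MT array (0.09002 and 0.08998). Arntl, which encodes BMAL1, gave 658 and 559 at 3 months and 170 and 176 in MT mice, and was called lower against the mean of the WT ages (-1.61 ± 0.27, adjusted p = 0.0330). The call of Arntl was lost without array 1 or 2 of the 3-month WT group (0.0976 and 0.0844), of the 19-month group (0.0636 and 0.0795) or of the MT group (0.128 and 0.144), without a variance trend (0.1345) and with the mean over its probe sets (0.0830). No time of day is given for single mice within the morning window, and the part of the clock phase in the differences of Cdkn1a, Ccng2 and Gadd45g was not tested.

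**Figure D4:**
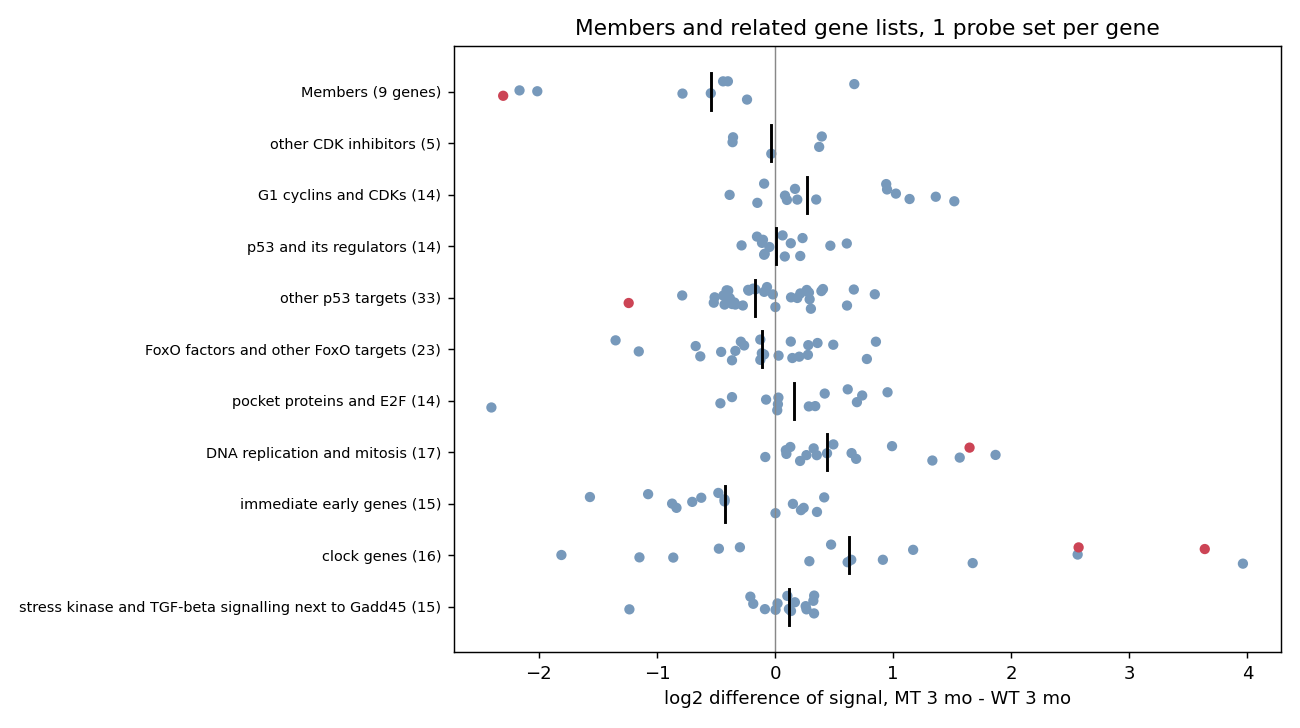
Difference of mean log2 signal between MT and WT mice of 3 months for the 9 tested member genes and 10 related lists, 1 point per gene, with the number of tested genes in brackets. Black lines are list medians and red points have an adjusted p under 0.05. The members have a median of -0.54, the replication and mitosis genes 0.44 and the other p53 targets -0.17.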

How the data were processed

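Liver RNA from 8 mouse samples had been hybridised to 1-colour Affymetrix Mouse Genome 430 2.0 arrays, and the sample descriptions set the 4 groups of 2. The deposited table held MAS5 signal intensities, linear values that the authors had brought to a common trimmed mean per array. No MAS5 version or setting is given in the sources used here, and no detection calls were used. After removal of 64 controls, 45037 of 45101 probe sets were left, and 34945 of them were named by 1 symbol. A floor of 1 was set before log2 transformation. Ranked by mean log2 signal, the upper 50% (22519 probe sets, 6.18 or more) entered a limma fit of all 4 groups (limma 3.58.1, R 4.3.3, lmFit and eBayes, variance trend), with 4 residual and 5.37 prior degrees of freedom. Benjamini-Hochberg adjustment of the two-sided p-values ran over all 22519 for each of 5 comparisons. With 2 arrays against 2, an exact permutation test reaches no p below 0.333, and none was used. The fit was tested on simulated data.

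All member probe sets are named. From each list the called genes are named, or those of largest moderated statistic, up to 3 in MT mice, as well as Sirt1, Cdkn1c and Cdkn2d. At the older ages lists without a call are given by counts or medians only, a choice made after the values were seen. The members and lists were chosen with earlier results of these data known, so they are not independent of them. Some list genes were not analysed here. The number of arrays limits the precision. Other normalizations, log offsets, filters, variance priors, sets of groups and tests, a replicate block, a mean over the probe sets of a gene, and fits without 1 array were run as alternatives. Promoter windows came from RefSeq, and protein sequences were not used here. Python 3.11.15 with pandas 2.3.3, numpy 2.4.6 and matplotlib 3.10.9 served for tables and plots.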

Additional observations from a re-analysis of the deposited data

How the results depend on the processing

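The number of member probe sets called in MT against 3-month WT mice was 2. It was 1 with the mean over the probe sets of a gene, 1 with a robust variance prior and 0 without a variance trend. It was also 0 with the t-test of the methods after Benjamini-Hochberg adjustment, at a fold over 1.5. It ranged from 0 to 4 when each array was left out in turn, with 0 without either array of the 3-month WT group and 4 without array 1 of the 12-month group. Against the mean of the WT ages the number was 3. It was 1 with a robust prior, 0 without a variance trend, and 0 to 4 with an array left out. At 19 months it was 0, and 1 with the unadjusted t-test at a fold over 1.5. It stayed at 0 at 12 months and between 19 and 12 months under every alternative run. Over all probe sets, the 116 called in MT mice became 13 to 255 with an array left out and 0 to 890 under the other alternatives. The 3 called at 12 months became 0 to 20 and 0 to 502, the 8 at 19 months 2 to 30 and 0 to 750, and the 179 against the mean of the WT ages 48 to 250 and 19 to 213. The cause of these changes was not tested, beyond the fewer arrays where 1 was left out. In MT against 3-month WT mice, 5 member differences, none of them called, changed sign when an array was left out: that of Gadd45a (range -0.0571 to 1.40), that of the second probe set of Mdm2 (-0.248 to 0.206), those of the dimmer probe sets of Gadd45b (-1.20 to 0.108 and -0.155 to 0.264) and that of the dimmest of Ccng1 (-0.321 to 0.129). In the other comparisons no printed member difference changed sign. The alternatives for the called genes of the lists were added after seeing the data.

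The arrays share replicate numbers only, and deviations of same-numbered arrays correlated at -0.03 to 0.14 over probe sets. With the replicate number as a block, 2 member probe sets were called in MT against 3-month WT mice and 3 against the mean of the WT ages, as without it, and 0 in each comparison of ages. The t-test and the fit of the compared groups alone were not run against the mean of the WT ages. Quantile normalization and median centring moved the median difference of all probe sets by under 0.1 on the log2 scale. Brightness limits the dim probe sets of Cdkn1b, Cdkn2a and Mdm2, which were not tested.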
